A study of Homo sapiens with 21 samples.

Results

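The 45 genes described here encode the machinery of DNA replication and the enzymes that supply it during S phase. They were listed by gene name, with earlier results of these data known, and all 45 were found among 61541 genes of a gene count table and among 57300 gene names of exon bin files. The libraries came from K562, an established cell line from a patient with chronic myeloid leukaemia, kept in RPMI medium with fetal bovine serum. An enhancer upstream of MYB, the gene of a transcription factor that keeps blood progenitors proliferating, gives rise to a pair of enhancer RNAs (eRNAs), and the study overexpressed each of them, under the labels 34kp and 34kn. A separate experiment had libraries labelled MYB overexpression and NMYB overexpression, in which the MYB transcript was not measurably raised. Per the design text the constructs were whole MYB and a form that lacks part of its N terminus, while NMYB is a label that no source used here explains.

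There were 7 groups of 3 libraries: K562 with 34kp and its 34kp control, K562 with 34kn and its 34kn control, and K562 labelled NMYB overexpression or MYB overexpression with a shared empty vector group. What the control libraries of the eRNA experiments carried is not spelled out in the labels, nor do they say whether the replicates are separate cultures. The p-values therefore rest on library-to-library spread that may be technical. The MYB experiment was available as gene counts, with 16552237 to 24462819 counts per library. The eRNA experiments were available as counts over exon bins, the non-overlapping parts into which transcripts divide a gene's exons, with 36563252 to 41243796 counts per library. A read can be counted in several bins, so levels were not compared between the 2 kinds of file. Values are counts per 1000000 counts of a library (CPM), with library sizes scaled by TMM to correct for composition, and a gene is called changed where edgeR's quasi-likelihood F test gave a Benjamini-Hochberg adjusted p below 0.05 over all genes tested.

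The eukaryotic helicase core is a ring of MCM2 to MCM7, which is loaded onto origins by the origin recognition complex with CDC6 and CDT1 and is restrained from reloading by geminin (GMNN). CDC45 and the GINS complex turn the loaded ring into an active helicase, after which primase and polymerase alpha start each strand, the clamp PCNA is loaded by replication factor C, and polymerases delta and epsilon extend. Many of these genes are transcribed under E2F factors as cells enter S phase, and proliferating leukaemia lines such as K562 express them at high levels.

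All 45 genes passed the filter on low counts in every comparison. In the bin files 6 of the 45 lay under names that join overlapping genes: POLA2 with CDC42EP2, PRIM1 with NACA, POLD1 with SPIB, POLD3 with LIPT2-AS1, FEN1 with FADS2, and CHAF1B with MORC3. The sum over the PRIM1 and NACA name was 1660 to 1790 CPM in the bin files, whereas PRIM1 alone had 45.2 to 63.4 CPM in the gene table, so values under the joined name cannot be read as PRIM1. Values of POLA2, POLD1, POLD3, FEN1 and CHAF1B in the eRNA experiments likewise include the genes joined with them, wherever they are given below. Among 16 markers of other cell types, CD3D, LYZ, COL1A2 and EPCAM were detected, CD2, CD79A, MS4A1, CSF1R, DCN, LUM, CDH1 and ALB were under the filter in both kinds of file, and the K562 markers GATA1 and TAL1 had 123 to 262 CPM and 103 to 195 CPM. The summed level of these other markers was 121.0 to 130.1 CPM in NMYB-labelled, 114.9 to 118.1 CPM in MYB-labelled and 131.5 to 140.3 CPM in empty vector libraries. It was 145.4 to 161.9 CPM in 34kp and 155.6 to 160.1 CPM in 34kp control libraries, and 132.4 to 136.1 CPM in 34kn against 123.8 to 127.0 CPM in 34kn control libraries. Its part in the results below was not tested. In bulk RNA, fewer cells in S phase and less RNA of a gene per cell cannot be told apart.

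The promoters of 4 of the genes are shown. DUT and UNG were the members with the largest increases in the MYB experiment. LIG1 and CDC6, from the lagging strand and from licensing, held exon bins called as used less with 34kn, calls that most fits without 1 library lost. Each run is the RefSeq sequence (GRCh38.p14) from 250 bases before to 50 bases after the start of the gene, on the gene's strand. Capitals mark matches, on either strand, to E2F words (TTTCGCGC, TTTGGCGC, TTTCCCGC or TTTGCCGC) or to MYB words, TAACGG as one form with CAACGG as another, or TAACTG together with the form CAACTG. None of these words contains another or the CCAAT word counted below.
DUT (chr15:48330845-48331144, plus strand): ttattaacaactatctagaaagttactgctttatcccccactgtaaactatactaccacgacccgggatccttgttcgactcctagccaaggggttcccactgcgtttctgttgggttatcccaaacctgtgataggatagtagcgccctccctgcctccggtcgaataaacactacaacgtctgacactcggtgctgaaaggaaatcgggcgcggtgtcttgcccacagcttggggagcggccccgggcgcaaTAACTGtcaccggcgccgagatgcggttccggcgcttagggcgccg
UNG (chr12:109097347-109097646, plus strand): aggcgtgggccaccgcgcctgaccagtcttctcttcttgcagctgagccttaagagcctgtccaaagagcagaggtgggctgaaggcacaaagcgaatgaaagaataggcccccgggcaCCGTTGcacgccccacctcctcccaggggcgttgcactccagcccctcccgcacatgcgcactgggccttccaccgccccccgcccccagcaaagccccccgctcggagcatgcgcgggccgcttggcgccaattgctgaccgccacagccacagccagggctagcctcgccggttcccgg
CDC6 (chr17:40287629-40287928, plus strand): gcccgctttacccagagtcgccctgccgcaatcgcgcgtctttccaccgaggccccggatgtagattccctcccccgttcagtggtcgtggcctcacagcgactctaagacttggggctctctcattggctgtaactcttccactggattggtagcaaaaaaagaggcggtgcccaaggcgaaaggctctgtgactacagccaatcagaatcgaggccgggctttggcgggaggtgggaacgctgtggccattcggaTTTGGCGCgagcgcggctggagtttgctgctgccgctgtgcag
LIG1 (chr19:48170295-48170594, minus strand): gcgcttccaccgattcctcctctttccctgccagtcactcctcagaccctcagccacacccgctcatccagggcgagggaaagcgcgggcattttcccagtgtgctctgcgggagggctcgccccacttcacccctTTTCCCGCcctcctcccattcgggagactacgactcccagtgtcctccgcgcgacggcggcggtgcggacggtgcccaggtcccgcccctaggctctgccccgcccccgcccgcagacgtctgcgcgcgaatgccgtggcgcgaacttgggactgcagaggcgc
RefSeq promoters were at hand for 39 of the 45 genes. An E2F word stood in 18 of the 39 (46.2%), among them CDC6, CDT1, PCNA, MCM2, MCM3, MCM6, MCM7, TYMS and LIG1, against 1164 of 35116 promoters of the same length (3.31%). A CCAAT word stood in 23 of the 39 (59.0%), against 34.6% of all promoters. A MYB word stood in 5 of the 39 (12.8%), those of DUT, UNG, GMNN, POLE and RPA1, against 25.7% of all promoters. These are matches of letters, with no measurement of binding.

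In the empty vector cells MCM7, PCNA, CDC45 and MCM3 had the highest levels of the set per length of exon. MCM7, a subunit of the helicase ring, stood first with 221 ± 3.47 CPM per kb (SD, n = 3, as for all levels per kb), followed by PCNA with 168 ± 4.21 CPM per kb and CDC45 with 163 ± 2.42 CPM per kb. PCNA and CDC45 differed by less than the sum of their SDs. MCM3 followed with 122 ± 1.92 CPM per kb and TK1, the thymidine kinase of the salvage pathway, with 109 ± 4.46 CPM per kb. The other subunits of the ring lay further down the order, MCM4 with 80.6 ± 1.79, MCM6 with 72.1 ± 1.07, MCM2 with 39.8 ± 2.16 and MCM5 with 34.9 ± 1.43 CPM per kb. Other genes overlap 23.6% of the exon length of MCM2 and none of that of MCM5. At the lower end stood ORC2 with 9.65 ± 0.243, POLD3 with 8.21 ± 0.452, GINS4 with 7.23 ± 0.186, GINS3 with 5.03 ± 0.175 and POLA2 with 2.2 ± 0.299 CPM per kb. Other genes overlap 35.1% of POLA2's exon length and 46.6% of that of TYMS, which had 37.2 ± 1.73 CPM per kb.

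**Figure D1:**
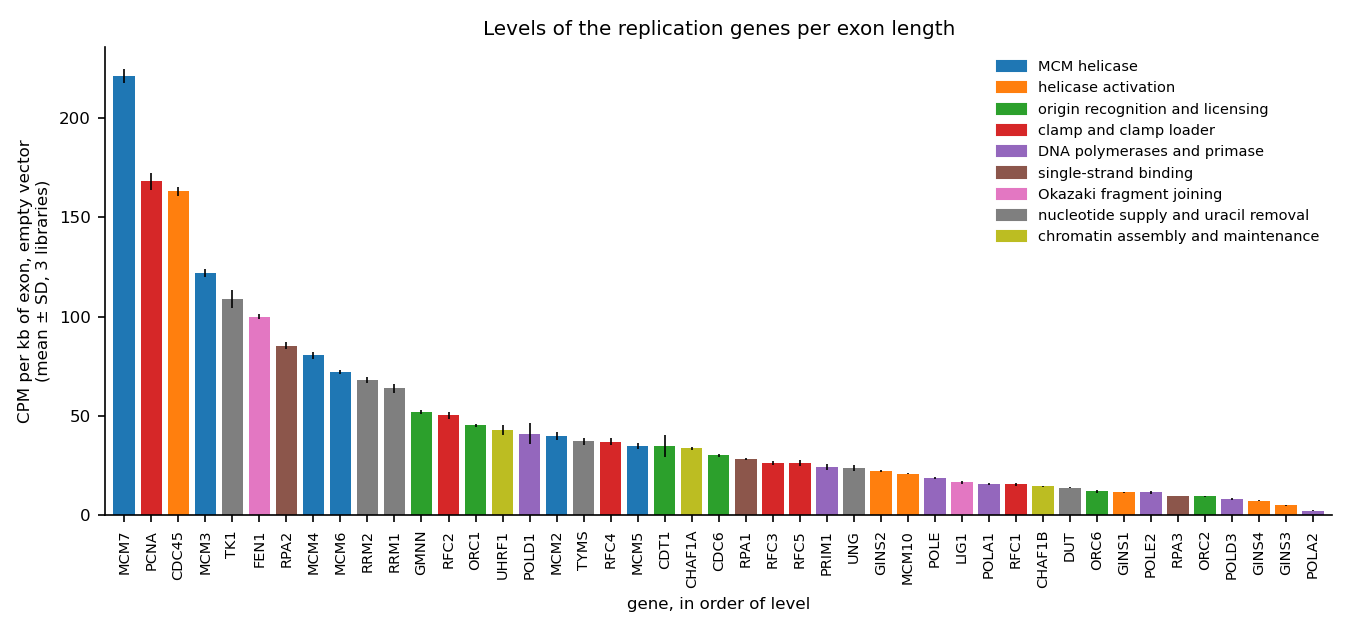
Mean level of each of the 45 genes in the 3 empty vector libraries, as CPM per kb of annotated exon (bars from 0, error bars SD), in order of level and coloured by role. MCM7, PCNA and CDC45 stand highest, at 221, 168 and 163 CPM per kb, and POLA2 lowest, at 2.2 CPM per kb.

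The MYB transcript was not measurably raised in the libraries labelled for its overexpression. It had 215, 202 and 217 CPM in NMYB-labelled libraries, 231, 228 and 222 CPM in MYB-labelled libraries, and 216, 210 and 219 CPM in empty vector libraries. The MYB-labelled libraries lay above both other groups by a small margin, with a log2 fold change over empty vector of 0.08 ± 0.0437 (SE; adjusted p = 0.23, edgeR), so the groups are called here by their labels. Whether RNA from the constructs was counted under MYB, under another name or not at all is not given in the sources used here, so these values do not show whether the proteins were overexpressed.

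The MYB experiment asked which genes respond to both forms of MYB. In the MYB-labelled libraries 11 of the 45 genes changed against empty vector, 4 upwards and 7 downwards. DUT, UNG, GINS3 and MCM10 rose, and LIG1, TK1, RFC5, POLD3, FEN1, CDC45 and POLE fell. The share of 24.4% lay near that of all 15823 genes tested, of which 22.3% changed, 9.62% upwards and 12.7% downwards, and 34.1% had an unadjusted p under 0.05. The median log2 fold change of the 45 genes was -0.038, against 0.005 over all genes, and their median absolute change was 0.089, against 0.158. In the NMYB-labelled libraries 9 of the 45 changed, 2 upwards and 7 downwards, which is 20%, against 24.9% of all genes (12.6% upwards and 12.4% downwards, with 36.1% at an unadjusted p under 0.05). The median there was -0.004, against 0.008 over all genes. Both comparisons share the empty vector libraries, so the values for each are given side by side. The summed level of the 45 genes was 7667 to 8090 CPM in NMYB-labelled, 7514 to 7706 CPM in MYB-labelled and 7769 to 7948 CPM in empty vector libraries. Groups without overlap were common over all genes. With MYB they did not overlap for 46.7% of the set, against 40.5% of all genes and 48.6% of those with a mean of at least 10 CPM. With NMYB these shares were 40%, 38.9% and 46.7%, and between NMYB-labelled and MYB-labelled libraries 24.4%, 22.8% and 29.4%.

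**Figure D2:**
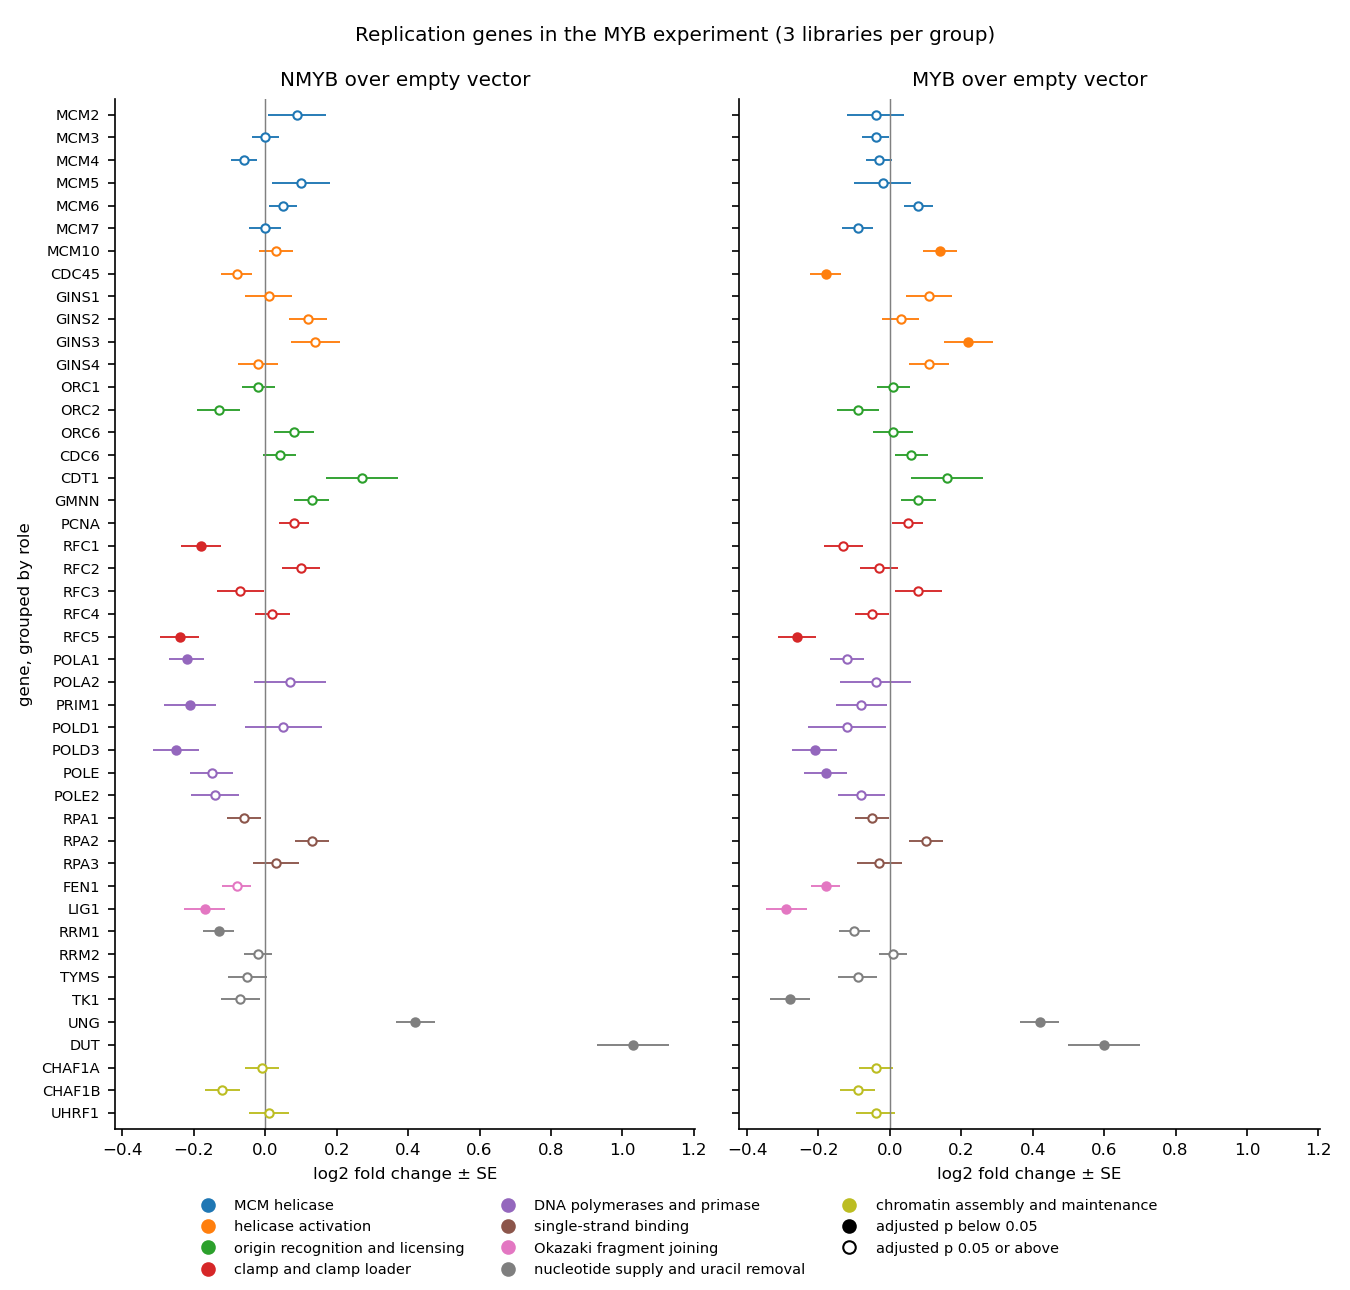
Log2 fold changes over empty vector (points, with SE) of the 45 genes in NMYB-labelled and MYB-labelled libraries, 3 per group, coloured by role, with filled points for adjusted p below 0.05. DUT stands farthest from 0, at 1.03 in NMYB-labelled and 0.60 in MYB-labelled libraries, followed by UNG at 0.42 in both.

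DUT (GRCh38 chromosome 15, 48331011 to 48343373, plus strand) encodes the dUTPase, which hydrolyses dUTP so that uracil is not built into DNA and provides the dUMP from which thymidylate is made. It had 110, 113 and 90.8 CPM in NMYB-labelled libraries, 66.0, 80.4 and 86.4 CPM in MYB-labelled libraries, and 49.9, 52.7 and 51.1 CPM in empty vector libraries. The 3 groups did not overlap. The log2 fold change over empty vector was 1.03 ± 0.10 with NMYB (SE; 2.04-fold, 95% confidence interval 1.76 to 2.38; adjusted p = 1.57e-05) and 0.60 ± 0.101 with MYB (1.51-fold, 1.30 to 1.76; adjusted p = 0.00111). Both calls were kept when any of the 9 libraries was left out. DUT has 8 named copies in the gene table (DUTP1 to DUTP8), which together held 10 to 15 counts per NMYB-labelled library, 16 to 26 per MYB-labelled library and 13 to 16 per empty vector library, against 904 to 2183 counts for DUT itself. How reads that fit several places were counted is not given in the sources used here, so the level of DUT is uncertain to that extent.

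UNG (GRCh38 chromosome 12, 109097574 to 109110992, plus strand) encodes the uracil-DNA glycosylase, which cuts uracil out of DNA behind the fork. It had 84.0, 79.7 and 80.6 CPM in NMYB-labelled libraries, 80.4, 82.7 and 81.4 CPM in MYB-labelled libraries, and 56.7, 63.4 and 63.2 CPM in empty vector libraries. All NMYB-labelled and MYB-labelled libraries lay above every empty vector library. The log2 fold change was 0.42 ± 0.0547 with NMYB (1.33-fold, 1.23 to 1.44; adjusted p = 2.11e-05) and 0.42 ± 0.0543 with MYB (1.33-fold, 1.23 to 1.44; adjusted p = 1.67e-05). Both calls were kept without any 1 library, and no annotated gene overlaps the exons of UNG.

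The other members of the set in nucleotide supply, TK1, RRM1, RRM2 and TYMS, did not follow DUT and UNG. DTYMK, a thymidylate kinase outside the set, rose in both groups and is described below with the further genes. TK1 had 183, 211 and 186 CPM in NMYB-labelled, 173, 169 and 160 CPM in MYB-labelled and 196, 212 and 201 CPM in empty vector libraries. Its MYB-labelled libraries lay below all others, with a log2 fold change of -0.28 ± 0.0552 (adjusted p = 0.00114), while the change with NMYB was -0.07 and not called. RRM1, the large subunit of ribonucleotide reductase, fell slightly with NMYB, by 0.13 ± 0.0437 (adjusted p = 0.0349), a call lost without empty vector replicate 1 or 2, MYB replicate 1 or NMYB replicate 2 or 3 and in a fit of only the 6 libraries compared (0.0635), and had -0.10 with MYB (adjusted p = 0.101). RRM2, its small subunit, had 362, 348 and 365 CPM in NMYB-labelled, 369, 360 and 367 CPM in MYB-labelled and 354, 365 and 371 CPM in empty vector libraries, groups that overlap. TYMS, the thymidylate synthase, had log2 fold changes of -0.05 with NMYB and -0.09 with MYB, and neither was called.

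**Figure D3:**
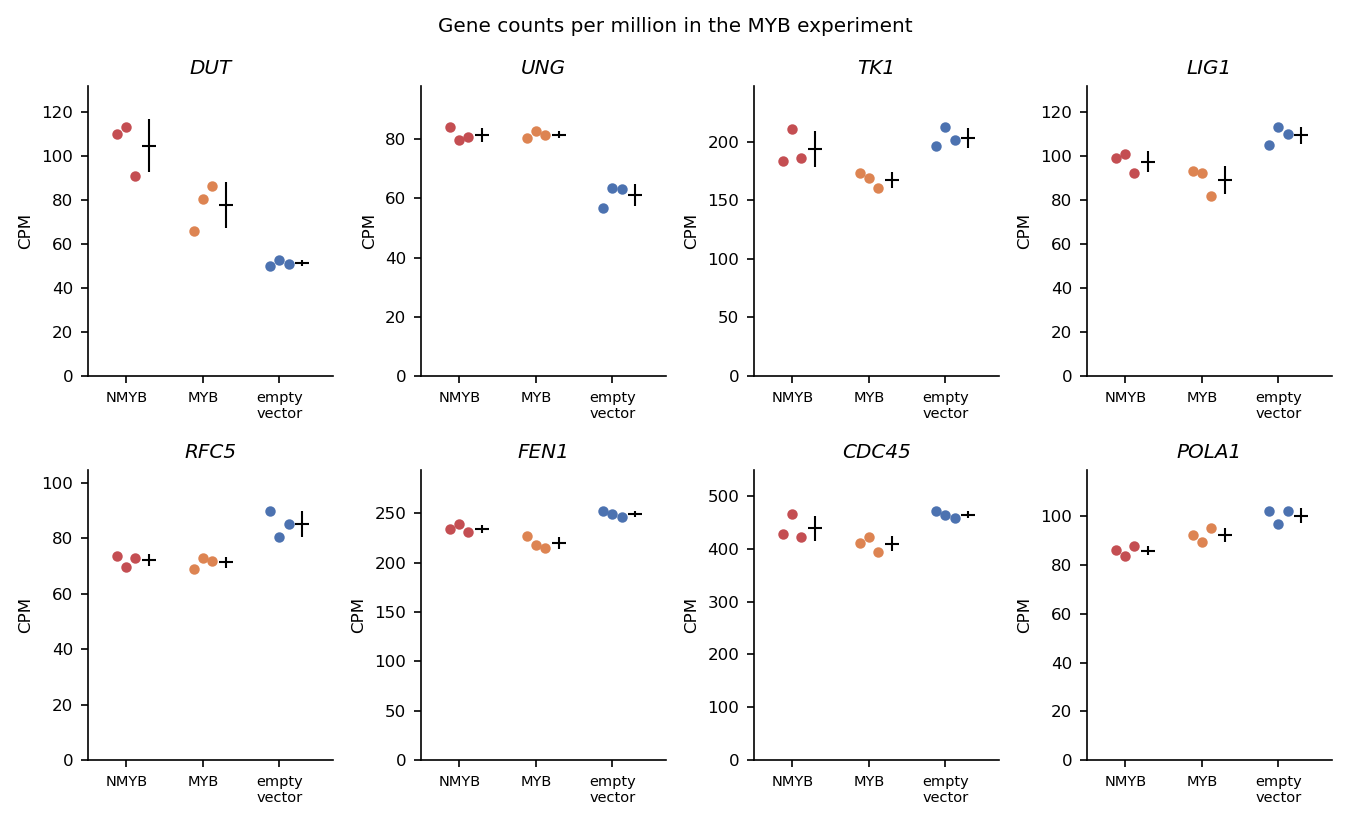
CPM of 8 genes in each library (points) with the group mean and SD (black) in the MYB experiment, for NMYB-labelled, MYB-labelled and empty vector libraries, each axis starting at 0. DUT and UNG lie higher in NMYB-labelled and MYB-labelled libraries than in empty vector, TK1 and CDC45 lie lower in the MYB-labelled libraries, and RFC5 lies lower in both of these groups than in empty vector.

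On the lagging strand, LIG1 (GRCh38 chromosome 19, 48115445 to 48170603, minus strand), the ligase that seals Okazaki fragments, had 99.2, 101 and 92.2 CPM in NMYB-labelled, 93.1, 92.4 and 82.0 CPM in MYB-labelled and 105, 113 and 110 CPM in empty vector libraries. Every NMYB-labelled and MYB-labelled library lay below every empty vector library. Its log2 fold change was -0.17 ± 0.0576 with NMYB (adjusted p = 0.0406) and -0.29 ± 0.0574 with MYB (adjusted p = 0.00103). The NMYB call was lost without empty vector replicate 2 or 3, MYB replicate 1 or NMYB replicate 1 or 3, and the MYB call was kept without any 1 library. FEN1, the flap endonuclease that trims the fragments, had 234, 239 and 231 CPM in NMYB-labelled, 227, 218 and 215 CPM in MYB-labelled and 252, 249 and 246 CPM in empty vector libraries. The groups of FEN1 did not overlap. It fell by 0.18 ± 0.0412 with MYB (adjusted p = 0.00386) and had -0.08 with NMYB (adjusted p = 0.147).

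Of the clamp and its loader, RFC5 (GRCh38 chromosome 12, 118013588 to 118033130, plus strand), a small subunit of the loader, fell in both groups. It had 73.7, 69.6 and 72.9 CPM in NMYB-labelled, 69.0, 72.9 and 71.7 CPM in MYB-labelled and 89.6, 80.4 and 85.1 CPM in empty vector libraries. The lowest empty vector library stood above the highest NMYB-labelled or MYB-labelled library. The log2 fold change was -0.24 ± 0.0539 with NMYB (adjusted p = 0.00311) and -0.26 ± 0.0535 with MYB (adjusted p = 0.00176), and both calls were kept without any 1 library. RFC1, the large subunit, fell with NMYB by 0.18 ± 0.0563 (adjusted p = 0.0221), a call lost without empty vector replicate 1 (0.122) or 3 (0.0687), and had -0.13 with MYB (adjusted p = 0.119). PCNA, the clamp, had 266, 267 and 251 CPM in NMYB-labelled, 256, 249 and 259 CPM in MYB-labelled and 247, 253 and 240 CPM in empty vector libraries. Its groups overlapped, with log2 fold changes of 0.08 with NMYB and 0.05 with MYB, neither called.

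Among 7 genes of the polymerases and primase, 3 fell with NMYB and 2 with MYB, and none rose, where 12.4% of all genes were called lower with NMYB and 12.7% with MYB. The calls of PRIM1 and POLE and that of POLD3 with MYB were each lost in several fits without 1 library. POLA1, the catalytic subunit of polymerase alpha, had 86.3, 83.8 and 87.7 CPM in NMYB-labelled, 92.2, 89.4 and 95.1 CPM in MYB-labelled and 102, 96.9 and 102 CPM in empty vector libraries. These groups did not overlap, and its log2 fold change was -0.22 ± 0.0493 with NMYB (adjusted p = 0.00275), kept without any 1 library, and -0.12 ± 0.0488 with MYB (adjusted p = 0.0835). POLD3, an accessory subunit of polymerase delta, had -0.25 with NMYB (adjusted p = 0.00713, or 0.0546 without empty vector replicate 1) and -0.21 with MYB (adjusted p = 0.02, or 0.164 without that library, 0.061 without empty vector replicate 3 and 0.11 without MYB replicate 1). PRIM1, the catalytic subunit of primase, fell with NMYB by 0.21 ± 0.0721 (adjusted p = 0.0433), a call lost without empty vector replicate 1 or 2, MYB replicate 1 or NMYB replicate 2 and in a fit of only the 6 libraries compared (0.0696). POLE, the catalytic subunit of polymerase epsilon, had 260, 310 and 271 CPM in NMYB-labelled, 281, 288 and 253 CPM in MYB-labelled and 305, 307 and 317 CPM in empty vector libraries. Its fall of 0.18 ± 0.0593 with MYB (adjusted p = 0.0391) was lost without any 1 empty vector library and without MYB replicate 1 or 3, and with NMYB it had -0.15 (adjusted p = 0.0836).

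Helicase activation was mixed in the MYB-labelled libraries, with 2 of 6 genes higher and 1 lower, and none of 6 was called with NMYB (edgeR; 1 of 6 had an unadjusted p under 0.05, and DESeq2 called 0). CDC45, a part of the active helicase, had 428, 466 and 423 CPM in NMYB-labelled, 411, 423 and 395 CPM in MYB-labelled and 471, 465 and 458 CPM in empty vector libraries. The MYB-labelled and empty vector libraries did not overlap, and CDC45 fell with MYB by 0.18 ± 0.0437 (adjusted p = 0.00553). GINS3, a subunit of the GINS complex, rose with MYB by 0.22 ± 0.0677 (adjusted p = 0.0261) and MCM10, which helps to activate the helicase, by 0.14 ± 0.047 (adjusted p = 0.0339). Each of these 2 calls was lost without empty vector replicate 2 or 3 and without MYB replicate 1 or 3, with adjusted p of up to 0.102 for GINS3 and 0.132 for MCM10. Both were also lost without the filter on low counts (0.053 and 0.123), and GINS3 with DESeq2 (0.0519).

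In the fit of all 9 libraries no gene of the helicase ring or of licensing was called. Over MCM2 to MCM7 the log2 fold changes ran over -0.06 to 0.10 with NMYB and -0.09 to 0.08 with MYB, with 0 of 6 called by edgeR or DESeq2 and 0 at an unadjusted p under 0.05 in either comparison. With MYB, MCM7 passed the threshold in a fit of only the 6 libraries compared (-0.09, adjusted p = 0.0435) and MCM6 without NMYB replicate 2 (0.09, adjusted p = 0.0452). MCM2 had 186, 240 and 197 CPM in NMYB-labelled, 196, 197 and 177 CPM in MYB-labelled and 184, 205 and 198 CPM in empty vector libraries. MCM5 had 258, 318 and 250 CPM in NMYB-labelled, 265, 259 and 234 CPM in MYB-labelled and 248, 268 and 253 CPM in empty vector libraries. The second NMYB-labelled library was the highest of the 9 for both genes, and the groups overlapped. The 95% confidence interval of the fold change over empty vector was 0.94 to 1.20 with NMYB and 0.861 to 1.10 with MYB for MCM2.

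Of the 6 licensing genes, edgeR called 0 in both comparisons, with 3 at an unadjusted p under 0.05 with NMYB and 0 with MYB. DESeq2 called CDT1 alone, with NMYB, where it called 8.85% of all genes with a count. CDT1, the loading factor of the helicase, had 135, 154 and 131 CPM in NMYB-labelled, 128, 136 and 126 CPM in MYB-labelled and 96.4, 132 and 121 CPM in empty vector libraries. Its first empty vector library stood apart from the other two. The log2 fold change was 0.27 ± 0.101 with NMYB (adjusted p = 0.0787) and 0.16 ± 0.101 with MYB (adjusted p = 0.287), and both passed the threshold without empty vector replicate 2 (0.00694 and 0.0391). Without the filter on low counts CDT1 was called with NMYB (0.23, adjusted p = 0.00061). GMNN, the inhibitor of CDT1, had 0.13 ± 0.0492 with NMYB (adjusted p = 0.0617) and 0.08 ± 0.049 with MYB (adjusted p = 0.271). CDC6 had 173, 163 and 179 CPM in NMYB-labelled, 176, 172 and 176 CPM in MYB-labelled and 171, 168 and 162 CPM in empty vector libraries, a log2 fold change of 0.04 with NMYB and 0.06 with MYB. None of RPA1 to RPA3, which coat single-stranded DNA, or of the chromatin genes CHAF1A, CHAF1B and UHRF1 was called. At an unadjusted p under 0.05 stood 1 of 3 of each of these lists with NMYB and 0 of 3 with MYB, and DESeq2 called 0. RPA1 had -0.06 with NMYB and -0.05 with MYB.

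Single libraries set how many of the weaker changes were called. Without NMYB replicate 2, which was the highest for MCM2 and MCM5, 14 of the 45 genes were called with NMYB, against 24.1% of all genes. PRIM1 and RRM1 were then no longer called, while TK1 (-0.14), POLE (-0.22) and CDC45 (-0.13) were called lower and GMNN (0.14), GINS2 (0.15), GINS3 (0.19) and RPA2 (0.17) higher. Without empty vector replicate 1, 5 were called with NMYB, against 16.8% of all genes: DUT and UNG, higher, and RFC5, POLA1 and LIG1, lower. Without empty vector replicate 3 or without MYB replicate 1, 7 were called with MYB, against 15.3% and 15.5% of all genes: DUT and UNG, higher, and LIG1, TK1, RFC5, FEN1 and CDC45, lower.

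Set directly against each other, the NMYB-labelled and MYB-labelled libraries gave 0 called genes among the 45 by edgeR, against 1.14% of all genes. At an unadjusted p under 0.05 stood 9 of the 45, against 17.7% of all genes. DESeq2 called 2 of the 45, DUT and TK1, against 1.22% of all genes with a count. DUT was higher with NMYB by 0.43 ± 0.0967 on the log2 scale (1.35-fold, 1.17 to 1.56; adjusted p = 0.0549), which passed the threshold without empty vector replicate 1 (0.0215) and without NMYB replicate 3 (0.00739). TK1 was 0.21 ± 0.0553 apart (95% confidence interval of the ratio 1.07 to 1.25; adjusted p = 0.0655). For MCM2 the interval of the ratio of NMYB-labelled to MYB-labelled libraries was 0.967 to 1.23, for PCNA 0.964 to 1.09, for RPA1 0.93 to 1.07 and for POLE 0.938 to 1.11.

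Beyond the 45 genes, 84 further genes of the replication pathway were listed. With NMYB 16 rose and 9 fell (29.8%, against 24.9% of all genes), and with MYB 13 rose and 5 fell (21.4%, against 22.3% of all genes), shares near those of all genes. POLE4, a small histone-fold subunit of polymerase epsilon, rose most, with a log2 fold change of 0.86 ± 0.0922 for NMYB (adjusted p = 2.07e-06) and of 0.73 ± 0.0916 for MYB (adjusted p = 1.07e-05). It had 31.9, 31.3 and 28.6 CPM in NMYB-labelled, 27.9, 27.3 and 28.5 CPM in MYB-labelled and 14.2, 19.9 and 16.5 CPM in empty vector libraries. DTYMK, the kinase that acts on thymidylate after TYMS or TK1, rose by 0.39 with NMYB and by 0.34 with MYB. RNASEH2B, a subunit of the nuclease that removes ribonucleotides from DNA, rose by 0.37 with NMYB and by 0.34 with MYB, and RNASEH2C, another subunit, rose by 0.37 with NMYB. ORC5, of the origin recognition complex, rose by 0.29 with MYB. TOP2A, the topoisomerase that untangles replicated DNA, fell by 0.37 with NMYB, and RBL2, a pocket protein that binds E2F4, fell by 0.34 with NMYB and by 0.33 with MYB. POLD4, a small subunit of polymerase delta, fell by 0.52 with MYB, where it had under 7 CPM in each MYB-labelled library. RIF1, a regulator of origin timing, was the single one of the 84 called between NMYB-labelled and MYB-labelled libraries (1.19%, against 1.14% of all genes), with -0.24 (adjusted p = 0.0411, edgeR). Without MYB replicate 1, 0 of all 16143 genes tested were called in that comparison, so the RIF1 call was lost. The calls of the other further genes were not followed over the fits without 1 library.

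In the eRNA experiments no gene of the set was called at the level of summed bins. With 34kp edgeR called 0 of the 45, against 2.35% of all 16662 genes tested. At an unadjusted p under 0.05 stood 4 of the 45, against 17.9% of all, and DESeq2 called 0. With 34kn edgeR called 0 of the 45 and 0% of all 16116 genes tested, with 13 of the 45 at an unadjusted p under 0.05, against 23.3% of all. DESeq2 called 3 of the 45, POLD1, RFC4 and UHRF1, against 4.13% of all genes with a count. The median log2 fold change of the 45 was 0.023 with 34kp, against -0.005 over all genes, and 0.037 with 34kn, against 0.002. Summed over the 39 genes with names of their own, the level was 6810 to 6963 CPM in 34kp and 6737 to 6904 CPM in 34kp control libraries, and 7278 to 7369 CPM in 34kn and 7271 to 7300 CPM in 34kn control libraries. MYB had 193, 215 and 231 CPM in 34kp, 206, 199 and 202 CPM in 34kp control, 209, 211 and 205 CPM in 34kn and 162, 202 and 190 CPM in 34kn control libraries, and was not called in either experiment.

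The 34kn and 34kn control groups did not overlap for 25 of the 45 genes (55.6%), against 27.8% of all genes and 39.8% of those with a mean of at least 10 CPM. Of these 25, FEN1, under its name joined with FADS2, had 188, 186 and 190 CPM in 34kn and 239, 194 and 222 CPM in 34kn control libraries. RFC4 had 162, 167 and 162 CPM in 34kn and 142, 145 and 137 CPM in 34kn control libraries. RRM1 had 334, 349 and 333 CPM in 34kn and 242, 314 and 298 CPM in 34kn control libraries. For RRM1 and FEN1 the first 34kn control library was farther from the 34kn libraries than the other two. The log2 fold change was -0.22 ± 0.0746 for FEN1 (adjusted p = 0.117), 0.20 ± 0.0595 for RFC4 (0.0901) and 0.24 ± 0.084 for RRM1 (0.122), and POLD1, under its joined name, had the smallest adjusted p of the 45, 0.0668, with -0.29 ± 0.0626.

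The count of 0 with 34kn depended on single control libraries. Without 34kn control replicate 2, 9 of the 45 were called, against 18% of all genes. These were RRM1 (0.32) and RFC4 (0.22), which were higher, and UHRF1 (-0.35), POLD1 (-0.32), FEN1 (-0.30), CHAF1A (-0.29), UNG (-0.28), TK1 (-0.24) and MCM5 (-0.21), which were lower. Without 34kn control replicate 1, RFC4 and POLD1 alone were called, against 2.71% of all genes.

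With 34kp the groups did not overlap for 12 of the 45 genes (26.7%), against 23.4% of all genes. The smallest adjusted p was that of RFC1, 0.11, which had 111, 117 and 129 CPM in 34kp and 142, 138 and 149 CPM in 34kp control libraries, a log2 fold change of -0.27 ± 0.0818. Among the core genes MCM2 had -0.04, MCM5 0.07, PCNA 0.09, CDC6 -0.08, CDT1 -0.19, GMNN 0.03, RRM2 0.11, TYMS 0.10, POLE 0.13 and RPA1 -0.02, none of them called. With 34kn the same genes had -0.05 for MCM2, -0.16 for MCM5, 0.05 for PCNA, 0.07 for CDC6, -0.16 for CDT1, 0.14 for GMNN, 0.04 for RRM2, -0.03 for TYMS, -0.14 for POLE and 0.03 for RPA1. The 95% confidence intervals of the fold change bounded a change of PCNA to between 0.945 and 1.20 with 34kp and between 0.931 and 1.16 with 34kn. Without 34kp replicate 3, 4 of the 45 were called in that experiment, against 6.85% of all genes: UNG (0.41), UHRF1 (0.39) and FEN1 (0.36), which were higher, and RFC1 (-0.33), which was lower.

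The response to the eRNAs differed between the experiments for 3 of the 45 genes by an interaction over all 12 libraries, against 6.36% of all 17323 genes tested, and all 3 were higher for 34kp, as were 3.53% of all genes. UNG had 35.8, 32.2 and 28.5 CPM in 34kp and 24.3, 25.4 and 27.1 CPM in 34kp control libraries, and 38.0, 34.4 and 32.1 CPM in 34kn and 43.3, 39.1 and 41.2 CPM in 34kn control libraries. All 34kp libraries stood above their controls and all 34kn libraries below theirs. The 34kp effect minus the 34kn effect was 0.57 ± 0.137 on the log2 scale (adjusted p = 0.0254), from 0.32 ± 0.108 with 34kp (adjusted p = 0.148) and -0.25 ± 0.0883 with 34kn (adjusted p = 0.131). The call was lost without 34kp replicate 1 or 2, 34kp control replicate 1 or 2, or 34kn replicate 2 or 3, with adjusted p of up to 0.073.

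UHRF1 (GRCh38 chromosome 19, 4903080 to 4962154, plus strand), which recognises hemimethylated DNA behind the fork and recruits the maintenance methyltransferase, had 92.9, 82.4 and 70.1 CPM in 34kp and 65.5, 67.6 and 67.4 CPM in 34kp control libraries, and 101, 96.7 and 97.2 CPM in 34kn and 134, 104 and 115 CPM in 34kn control libraries. All 34kp libraries again stood above their controls and all 34kn libraries below theirs. Its difference of effects was 0.56 ± 0.141 (adjusted p = 0.0306), and POLD1, the catalytic subunit of polymerase delta, under a name joined with SPIB, had 0.36 ± 0.0968 (adjusted p = 0.038). Each of these 2 calls was lost without any 1 library other than 34kp replicate 3 and 34kn control replicate 2, with adjusted p of up to 0.0778 for UHRF1 and 0.0969 for POLD1. Among the 84 further genes 5 were called (5.95%, against 6.36% of all genes). POLE4 (0.78), RECQL4 (0.58), DCTPP1 (0.58) and E2F4 (0.42) were higher for 34kp and DTL (-0.47) lower.

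More genes of the set were called between the control groups than between either eRNA and its control. Between 34kp control and 34kn control 21 of the 45 genes were called, 8 higher and 13 lower in 34kp control, against 37% of all genes (18.9% higher and 18.2% lower). These groups also belong to different experiments, and the experiment and the control cannot be told apart. UHRF1 stood at -0.82 ± 0.0999 (adjusted p = 1.93e-05) and UNG at -0.69 ± 0.0974 (adjusted p = 8.08e-05), with the values given above. Neither gene's control groups overlapped, which held for 55.6% of the set and 49.4% of all genes. For MCM7 the libraries had 632, 667 and 706 CPM in 34kp control and 1020, 890 and 934 CPM in 34kn control (log2 fold change -0.50 ± 0.0676, adjusted p = 5e-05). For MCM5 they had 124, 144 and 151 CPM in 34kp control and 224, 196 and 216 CPM in 34kn control (-0.60 ± 0.0915, adjusted p = 0.000145). MCM6, of the same ring, was higher in 34kp control, with 292, 286 and 280 CPM against 220, 240 and 232 CPM in 34kn control (0.31 ± 0.0603, adjusted p = 0.000968). MCM2 was lower (-0.31) and MCM3 higher (0.22), so 5 of the 6 ring genes were called, 3 of them lower and 2 higher.

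Of the Okazaki genes, LIG1 was lower in 34kp control by 0.32 on the log2 scale, and FEN1, under its name joined with FADS2, by 0.50. GINS3 (-0.50), CHAF1A (-0.37) and TYMS (-0.36) were lower as well. POLE2 (0.38), POLD3, under its name joined with LIPT2-AS1 (0.37), ORC2 (0.34) and RFC1 (0.32) were higher. The calls of POLE2, POLD3, ORC2 and CHAF1A were lost without 34kn control replicate 1, with adjusted p of 0.062, 0.0515, 0.0646 and 0.0554, and those of ORC2 and CHAF1A also without 34kp control replicate 1 (0.0542 and 0.0834). Of the 84 further genes 26 were higher and 19 lower (53.6% called, against 37% of all genes). POLE4 (-1.04), NME1 (-0.78), CHTF8 (-0.69), DTYMK (-0.66), ATAD5 (0.65) and DCK (0.65) were farthest from 0. Of these, NME1, CHTF8 and DCK lay under names joined with NME2, DERPC and MOB1B, so their values include those genes. Low-quality alignments made up 7.14% to 8.35% of counted items in 34kp control and 8.94% to 10.5% in 34kn control libraries, and their part in the difference was not tested. POLE was lower as well (-0.27), while PCNA (0.01), CDC6 (-0.02), CDT1 (-0.01), GMNN (0.09), RRM2 (-0.08) and RPA1 (-0.06) were not called.

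The study made the bin files to ask whether the eRNAs alter the use of exons. A bin was tested by edgeR's diffSpliceDGE, with adjusted p over all bins tested. The relative change given below is the natural-log fold change of the bin minus that of the whole gene. Unlike the gene values, it is not on the log2 scale. The 45 genes held 1664 bins, and bins are named by their number and by their place counted from the gene's start. The bins came without coordinates, and that their number rises with the coordinate was inferred. In 1249 of 1441 minus-strand genes checked, bin counts followed annotated bin widths more closely in that order than in the reverse. With 34kp 0 of 1189 tested bins of the set were called, against 0.00862% of all 220442 bins. At an unadjusted p under 0.05 stood 35 of the 1189 (2.94%), against 2.19% of all bins, and limma's diffSplice called 0. The 6 smallest adjusted p were at or above 0.87. Of these bins, 5 lay under the PRIM1 and NACA name, numbers 96, 99, 100, 101 and 103 of 104, with relative changes of -0.58 to -0.37. The other was bin 38 of 41 under the POLA2 name, with 0.47.

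With 34kn 22 of 1196 tested bins of the set (1.84%) were called, against 0.794% of all 216197 bins, and all 22 were used less, as were 0.772% of all bins. They lay in 12 of the 45 genes, and with p-values combined per gene by Simes' method 10 of the 45 genes were called, against 7.24% of all genes. RPA1, the large subunit of the single-strand binding protein, had the smallest adjusted p, in bin 3 of 28. That bin had 1.27, 1.20 and 0.967 CPM in 34kn and 5.43, 1.67 and 2.18 CPM in 34kn control libraries. Every 34kn library lay below every control, and the first control library was far above the other two. The relative change was -1.02 on the natural-log scale (adjusted p = 1.77e-05), while RPA1 as a whole had a log2 fold change of 0.03.

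Bin 10 of 33 of MCM2 had 1.38, 1.28 and 1.60 CPM in 34kn and 5.38, 2.48 and 2.32 CPM in 34kn control libraries (relative change -0.84, adjusted p = 0.000138). In TYMS, bin 2 of 16 had 10.5, 10.4 and 11.7 CPM in 34kn and 29, 13.2 and 16.3 CPM in 34kn control libraries (-0.58, adjusted p = 0.00262). Bin 1 of 15 of UNG had 0.69, 0.894 and 1.17 CPM in 34kn and 3.31, 1.52 and 2.24 CPM in 34kn control libraries (-0.77, adjusted p = 0.00891). For these 3 bins the groups did not overlap. They did overlap for the first bin from the start of ORC1, with 0.441, 0.434 and 0.916 CPM in 34kn and 2.66, 0.758 and 1.53 CPM in 34kn control libraries (-1.11, adjusted p = 0.000639). They also overlapped for bin 9 of 38 of RRM2, with 6.62, 5.65 and 7.73 CPM in 34kn and 21.7, 7.26 and 11.6 CPM in 34kn control libraries (-0.74, adjusted p = 0.00435). In each of these 6 bins the first 34kn control library was the highest of all 6 libraries.

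The called bins lay near the starts of their genes. Of the 20 called bins in genes with names of their own, 17 (85%) fell in the first 25% of the bin order and 3 in the next 25%, while 22.3% of the set's tested bins lay in the first 25%. Over all genes 992 of 1312 called bins (75.6%) lay there, with 20.3% of the tested bins. The called bins of CDC6 were its bins 1, 3 and 4, those of UNG its first and second, those of RPA2 its first and second, and that of PCNA its second from the start. The CDC6 bins had -1.23, -0.68 and -0.68 (adjusted p = 0.0232, 0.0334 and 0.0205, diffSpliceDGE) with overlapping groups, and each kept its call in 1 of 6 fits without 1 library. Bins 57, 61 and 62 of LIG1 had -0.74, -0.91 and -0.85 (adjusted p = 0.0273, 0.0185 and 0.0389), each kept in 2 of these fits. Bins 61 and 62 had near-equal levels in all 6 libraries. Neighbouring bins can share reads, so called bins of 1 gene are not separate observations, here or in the counts above. In the first 25% the median relative change of the set was -0.15 with 34kn, against -0.12 over all genes, and 0.02 with 34kp, against 0.00. In the remaining parts of the bin order it was 0.01 to 0.02 with 34kn and -0.01 to 0.01 with 34kp.

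**Figure D4:**
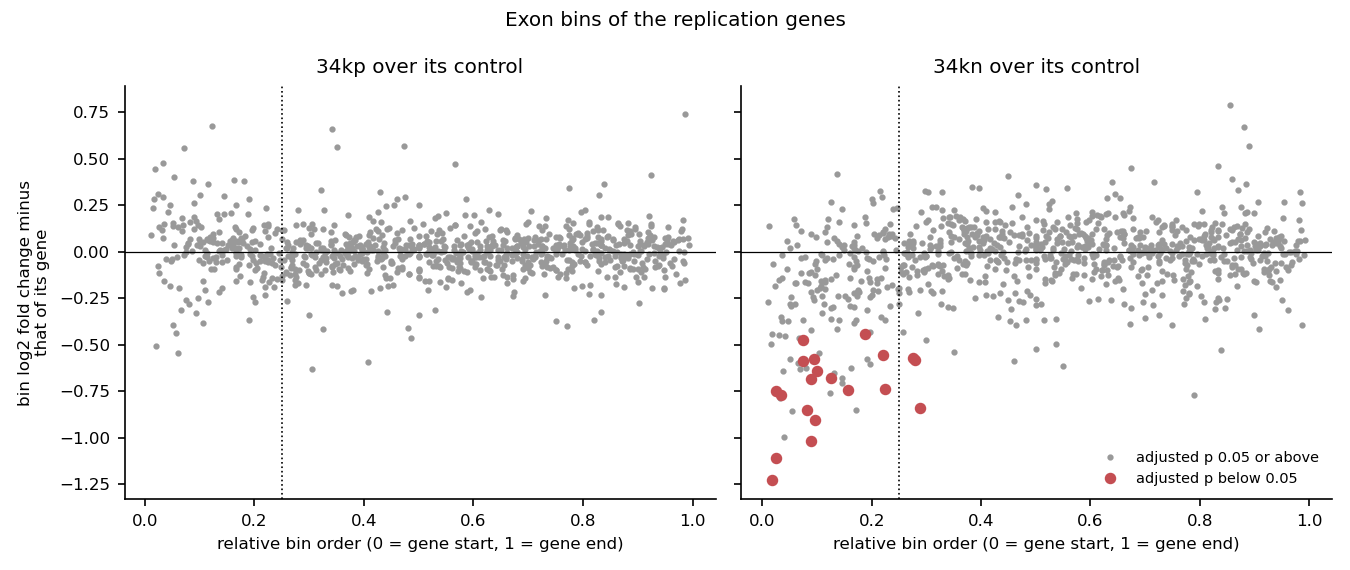
Natural-log fold change of each tested bin of the replication genes minus that of its gene, against the relative order of the bin from the gene's start. Panels show 34kp and 34kn over their controls. Called bins are in red and others in grey, and a dotted line marks the end of the first 25%. The axis label reads log2, but the values are natural logs. The 20 called bins of 34kn lie below 0, 17 of them in the first 25%, and no bin is called for 34kp.

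The first 25% of the bin order held 14.0%, 12.8% and 12% of the set's counts in 34kp and 12.8%, 13.0% and 13.3% in 34kp control libraries. It held 13.5%, 13.5% and 13.8% in 34kn and 16.9%, 14.1% and 14.7% in 34kn control libraries. All 34kn libraries lay below all 34kn controls, and 34kn control replicate 1 stood apart from the other libraries, as it did over all genes, with 19.6% against 17.2% and 17.7% in its fellow controls and 16.8% to 17.0% in 34kn libraries. Without that library 1 of the set's bins was called, against 0.158% of all bins, and without 34kn control replicate 2, 77 were called, against 3.74%. Without 34kn replicate 1 or replicate 2, 2 were called, against 0.16% and 0.113% of all bins. Without 34kn control replicate 3 or 34kn replicate 3, 11 and 8 were called, against 0.502% and 0.318%. The RPA1 and MCM2 bins lost their calls without 34kn control replicate 1 alone, with adjusted p of 0.267 and 0.22, and kept their direction, with relative changes of -0.54 and -0.51. Without that library the ORC1, TYMS, RRM2 and UNG bins had -0.71, -0.31, -0.39 and -0.57, with adjusted p of 0.261, 0.0535, 0.0812 and 0.348. The calls of the ORC1, TYMS and RRM2 bins were also lost without 34kn replicate 1 or 2. That of the UNG bin was lost without these and without 34kn control replicate 3, and with limma's diffSplice (0.0502).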

How the data were processed

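Per the labels' protocols, RNA was taken with TRIzol and libraries were built with a TruSeq kit. The authors deposited raw counts in both cases: a table of gene counts for the 9 libraries of the MYB experiment, and exon bin counts for the 12 eRNA libraries. Per the submitters' processing notes, Trimmomatic 0.93 was used, with HISAT2 2.2.1 and featureCounts 2.0.1 or STAR 2.7.10a, on GRCh38. The bin counter, annotation release, strand setting and treatment of multiply aligned reads are not given in the sources used here. Without a strand setting, overlapping and antisense genes cannot be told apart.

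The 45 genes, the 84 further genes and all lists were chosen with earlier results of these data known. Lines without a bin name were dropped before scaling. Of all counted items, reads outside bins made up 29.5% to 32.8% and low-quality reads 4.46% to 10.5%. Bins were summed per gene name. Gene tests used edgeR 4.0.16 in R 4.3.3 (robust quasi-likelihood F test, two-sided, TMM, filterByExpr with a minimum count of 10, Benjamini-Hochberg adjusted p below 0.05). One fit covered the 9 libraries of the MYB experiment, and each eRNA experiment had a fit of its own 6 libraries, while the interaction and the control contrast used all 12. Exon usage used diffSpliceDGE. DEXSeq, which the series' design text names, was not run. Gene positions came from GENCODE 29 and promoters from RefSeq. Levels per kb divide CPM by the summed length of annotated exons.

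Named genes were, per comparison, every called member, or the 15 of largest change where over 20 were called, a fixed core (MCM2, MCM5, PCNA, CDC6, CDT1, GMNN, RRM2, TYMS, POLE and RPA1), the 6 called further genes of largest change, and the 6 member bins of smallest adjusted p. Other members named were chosen after their values were seen. Alternatives were RLE scaling, no filter, a replicate block, other sets of libraries, DESeq2 1.42.0, joined names left out, a minimum bin count of 30, diffSplice in limma 3.58.1, and each library left out. The code was tested on simulated data. Each library counted once, as the counts of all 21 replicate pairs differed (chi-square per degree of freedom 1.53 to 46.7). In the eRNA experiments a read can add to several bins, which raises this value. The value does not tell separate cultures from technical repeats.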

Additional observations from a re-analysis of the deposited data

Results flagged for a closer look

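For UNG, UHRF1 and POLD1 the response to overexpression differed between the eRNA experiments by the interaction over 12 libraries. The 34kp effect minus the 34kn effect was 0.57 on the log2 scale for UNG, 0.56 for UHRF1 and 0.36 for POLD1, the last under a name joined with SPIB. The adjusted p by edgeR were 0.0254, 0.0306 and 0.038 in that order. These calls made up 6.67% of the set, near the 6.36% called over all genes. They were lost in 6, 10 and 10 of the 12 fits without 1 library, in the same order. UNG and UHRF1 were above every control in all 34kp libraries and below every control in all 34kn libraries, whereas the 34kp and 34kp control libraries overlapped for POLD1. Both genes also had lower levels in 34kp control than in 34kn control libraries, by 0.69 and 0.82 on the log2 scale, and the part of that difference in the interaction was not tested.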

How the results depend on the processing

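Over 116 values of single genes and bins and 1591 settings, 1490 kept their side of the threshold, 86 lost their call, 15 gained one and 0 reversed a call. Among the 1490, 42 that were not called changed sign. Shares of all genes are given in brackets. Between NMYB-labelled and MYB-labelled libraries the called genes of the set were 2 without the filter (1.84%), 2 with DESeq2 (1.22%) and 1 with a replicate block (7.24%), against 0 (1.14%). With 34kn they were 5 without the filter (5.24%) and 3 with DESeq2 (4.13%), against 0 (0%). For the difference of the eRNA effects they were 5 without the filter (6.22%) and 7 with DESeq2 (6%), against 3 (6.36%). For 34kn exon usage limma's diffSplice called 12 bins (0.604% of all bins), against 22 (0.794%). The causes were not tested. Leaving out each library in turn gave 5 to 14 called genes for NMYB against empty vector, 7 to 13 for MYB against empty vector, 0 to 1 for NMYB against MYB, 0 to 4 for 34kp, 0 to 9 for 34kn, 0 to 9 for the difference of effects and 18 to 22 between the controls, and 0 bins for 34kp and 1 to 77 bins for 34kn. The low ends for NMYB and MYB against empty vector were reached without empty vector replicate 1 (5), and without empty vector replicate 3 or MYB replicate 1 (7 each). Correlations between the deviations of same-numbered libraries were low, with 0 of 3 over 0.1 in any comparison. The highest was 0.0994, between NMYB-labelled and MYB-labelled libraries. Between MYB-labelled and empty vector libraries they were 0.042, 0.0538 and 0.00163, against at most 0.0176 for libraries of unlike number. These values are too small to show a pairing and cannot exclude a weak one. With a replicate block 13 genes of the set were called for NMYB and 14 for MYB against empty vector, against 9 and 11 without it. Over all genes the block called 29.1% and 26.8%, against 24.9% and 22.3% without it. Between NMYB-labelled and MYB-labelled libraries it called 7.24% of all genes, against 1.14%. For 34kn it called 20 bins of the set and 0.556% of all bins. CDT1 with NMYB (adjusted p = 0.00273) and with MYB (0.0477) and GMNN with NMYB (0.0345) were among the genes that it added. With 3 libraries per group, small changes may have gone undetected.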
